A study of Caenorhabditis elegans with 4 samples.

Results

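Broad MRE-11 domains were sites at which the peak caller reported a long ChIP peak for the protein in young adult worms. Whether the protein was bound along the whole stretch was not tested. MRE-11 is a nuclease that works with RAD-50 at DNA double-strand breaks: it helps to make the programmed breaks of meiosis and trims broken ends so that they can be repaired by homologous recombination. In the worm germline it is known for both roles, and resection carries repair proteins away from the break along the DNA. Whether the sites described here lie at breaks was not tested.

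Domains were chosen by their width in the whole-series peak list, at 1500 bp or more, and by overlap of at least 1 bp with a peak of each of the 2 ChIP replicates. This gave 456 domains among 4147 reproducible peaks (those overlapped by both replicates), 10.996%, out of 11473 nuclear peaks in all. The other 3691 reproducible peaks, all under 1500 bp, are called narrower peaks. Domains were few but long: they held 1119410 of the 3487477 bases in reproducible peaks, 32.1%. They covered 1.12% of the nuclear chromosomes.

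The chromatin came from Caenorhabditis elegans hermaphrodites of genotype fem-2(b245)III at the young adult stage with a germline, kept at 20 degrees Celsius per the series' design text. The growth protocol instead describes animals grown until gravid. The 2 ChIP libraries used a polyclonal rabbit antibody to MRE-11 (SDQ3866), and the 2 input libraries from the same strain were not analysed here. There was no wild type. The allele b245 is temperature-sensitive, and FEM-2, a protein phosphatase, is needed for spermatogenesis and the male fate; whether the animals were feminized was not tested. Whole worms were ground, so a domain may come from somatic or germline nuclei, and fewer cells with a signal cannot be told apart from less signal per cell.

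Width, replicate overlap and score all came from the same 2 libraries, and the first 2 of these fixed which sites are domains. Values of the lists are therefore given as descriptions with no test, including those of the narrower peaks. Positions on the chromosomes were not used by the rule, but neighbouring peaks are not independent and the genome is sampled once, so their shares come with a 95% Wilson interval for counting error alone and without a p-value. Read depth is unknown.

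The limit of 1500 bp cut through a continuous range of widths. The domain nearest to it, I 5985303 to 5986802, was 1500 bp wide with a score of 149.57, and the nearest narrower peak, II 11874239 to 11875737, was 1499 bp wide with a score of 151.81. Within 100 bp of the limit, 68 domains had a median score of 116 and 81 narrower peaks a median of 142. Domains ran up to 11126 bp, with a median width of 1973 bp and quartiles of 1692 and 2720.5 bp. There were 238 domains under 2000 bp, 130 from 2000 to 2999 bp, 62 from 3000 to 4999 bp and 26 of 5000 bp or more. The narrower peaks had a median width of 570 bp.

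The longest domains lay on different chromosomes and differed widely in score. Scores are the peak caller's own, on a scale that the files do not state, and rank peaks within a list only. The longest, I 15060227 to 15071352, was 11126 bp wide and scored 36.12, and ended 1094 bp before the last base of I covered by any peak. Replicate 1 had a peak of 11833 bp there and replicate 2 one of 11258 bp. On X the longest was 16929325 to 16940143 (10819 bp, score 131.90), with peaks of 12582 bp in replicate 1 and of 10748 bp in replicate 2. Both had no other reproducible peak within 10 kb, although the longest on X outranked 94.3% of nuclear peaks by score and the longest on I 75.7%.

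On V the longest was 7915532 to 7925034 (9503 bp, score 127.05), 10134 bp in replicate 1 and 9710 bp in replicate 2, and it had a second domain 1050 bp away. On II it was 10541670 to 10549698 (8029 bp, score 107.05). Here the replicates differed in how they divided the region: replicate 1 had a single peak of 19375 bp that held 7 whole-series peaks, and replicate 2 a peak of 8128 bp. On III the longest was 2497016 to 2503206 (6191 bp, score 90.90), with 7064 bp in replicate 1 and 6474 bp in replicate 2. On IV it was 4467764 to 4473865 (6102 bp, score 119.46), as a peak of 6508 bp in replicate 1 and one of 5751 bp in replicate 2. The IV domain was the only one of these 6 with a replicate 2 peak under 95% of the whole-series width, and 91.5% of its bases were covered there.

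The next 4 on each chromosome were shorter, between 4031 and 7764 bp. On I they were 7866015 to 7872472, 7079256 to 7085326, 13610008 to 13615746 and 3389817 to 3394723, with scores from 113.82 to 152.82. On II they were 693604 to 699466, 8741897 to 8747534, 10445299 to 10450768 and 11756629 to 11761961, with scores from 66.71 to 108.27. The III domains were 5938623 to 5944005, 2077583 to 2082618, 10807135 to 10811701 and 8443582 to 8447855, and their scores ran from 24.04 to 157.96. Those on IV were 14475952 to 14481139, 11070848 to 11075768, 8466940 to 8471400 and 13929217 to 13933247, from 32.19 to the maximum of the list, 163.35. The V domains were 5838641 to 5846404, 17119930 to 17126579, 3434561 to 3441165 and 9338418 to 9344814, with scores from 28.60 to 146.92. On X they were 12662816 to 12668381, 289836 to 295290, 7951266 to 7956665 and 2057735 to 2062997, with scores from 36.24 to 144.01. Of these 30 longest domains, 5 per chromosome, 1 had the maximum score and 7 fell below 49.2, the median of reproducible peaks. In the replicate lists 18 of the 30 reached the top tied score of 3100 or more in both.

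Most domains ranked high by score, but length and score did not rise together among them. Domains had a median score of 134 (quartiles 79.7 and 160), against 44.3 (23.3 and 87.5) in narrower peaks. The maximum of 163.35 was reached by 77 domains (16.9%) and 95 narrower peaks (2.57%). In both replicate lists a score of 3100 or more was reached by 168 domains (36.8%) and 82 narrower peaks (2.22%). Across the 456 domains width and score had a Spearman rho of -0.070, against 0.46 across the 3691 narrower peaks. This is a correlation across sites that share the same libraries, with ties at the maximum.

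By width the median score was 140 in domains under 2000 bp and 145 from 2000 to 2999 bp, but 94.3 from 3000 to 4999 bp and 105 at 5000 bp or more. The maximum score was correspondingly found in 18.5%, 19.2%, 11.3% and 3.85% of these classes. The replicate lists ran the other way: the share with a score of 3100 or more in both was 29.4% in the shortest class and 57.7% in the longest. A replicate score was the highest among the overlapping peaks, so a longer domain may have more peaks to draw on. Replicate 2 split 8.82%, 15.4%, 16.1% and 11.5% of the classes, from shortest to longest. The domains of maximum score were of ordinary length, with a median of 1934 bp and quartiles of 1692 and 2416 bp. The longest of them, IV 14475952 to 14481139 (5188 bp), had 5785 bp in replicate 1 and 5125 bp in replicate 2.

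**Figure D1:**
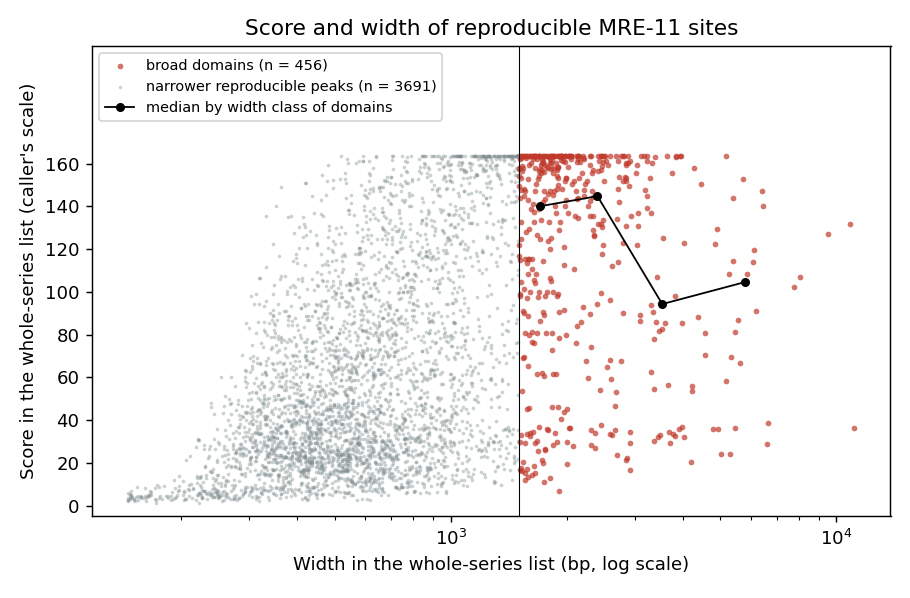
Score in the whole-series list (caller's scale) against width (bp, log scale) for the 456 broad domains (red) and the 3691 narrower reproducible peaks (grey), with the limit of 1500 bp as a vertical line and the median of each width class of domains in black. Scores climb with width up to the limit and spread over the whole range beyond it, with class medians of 140, 145, 94.3 and 105.

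Some domains were long but of weak score. Below the median score of reproducible peaks there were 80 domains (17.5%) and 1986 narrower peaks (53.8%). These 80 were as long as the rest, with a median width of 1979.5 bp against 1973 bp in the other 376 domains, and the top score was reached in both replicates by 1 of the 80 and by 167 of the 376. The weakest, I 8679505 to 8681416 (1912 bp), scored 6.60, and was 1611 bp wide with a score of 57.17 in replicate 1 and 3141 bp wide with a score of 1841.40 in replicate 2. At III 7209128 to 7210934 (1807 bp) the whole-series score was 12.68, while the overlapping replicate peaks scored 3100. Those were a single peak of 4025 bp in replicate 1 and one of 3525 bp in replicate 2, and each also spanned the neighbouring domain 57 bp away, which had the maximum score of 163.35. This was the 1 of the 80.

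At these sites, kept for being in both replicate lists, the replicates gave different lengths. The widest overlapping peak had a median width of 3013.5 bp in replicate 1 (quartiles 2396.25 and 4477.75) and 2203.5 bp in replicate 2 (1733.75 and 3084.75). The replicate 1 peak was the wider at 408 of 456 domains (89.5%) and at 3441 of 3691 narrower peaks (93.2%). A width of at least 1500 bp was found at 455 domains in replicate 1, at 383 (84.0%) in replicate 2 and at 382 in both. Among narrower peaks, 358 of 3691 (9.70%) lay under peaks that wide in both replicates. The replicate lists also had many wide peaks outside the domains: 430 of the 1551 replicate 1 peaks of 1500 bp or more (27.7%) and 375 of the 603 in replicate 2 (62.2%) overlapped a domain.

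As a ratio of replicate 2 to replicate 1, the widths had a median of 0.795 at domains (quartiles 0.568 and 0.909) and 0.573 at narrower peaks (0.411 and 0.738). As a difference in bases they were much closer, with medians of -591.5 bp at domains and -509 bp at narrower peaks. Where a site was a single peak in each of the 3 lists, a set chosen after the values were seen, the median difference was -426 bp at 216 domains (quartiles -583 and -239.75) and -424 bp at 1963 narrower peaks (-533 and -297). The median ratios of these single-peak sites were 0.853 and 0.627. At single-peak sites the median gap in bases was thus of like size in both sets. Over all sites its quartiles were -1404 and -358.25 bp at domains and -1063.5 and -327 bp at narrower peaks. Whether the gap is fixed was not tested. Within the domains the median ratio was 0.74 under 2000 bp and 0.80 from 2000 to 2999 bp. It was 0.86 from 3000 to 4999 bp and 0.92 at 5000 bp or more, with median differences between -676.5 and -532 bp in these classes.

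**Figure D2:**
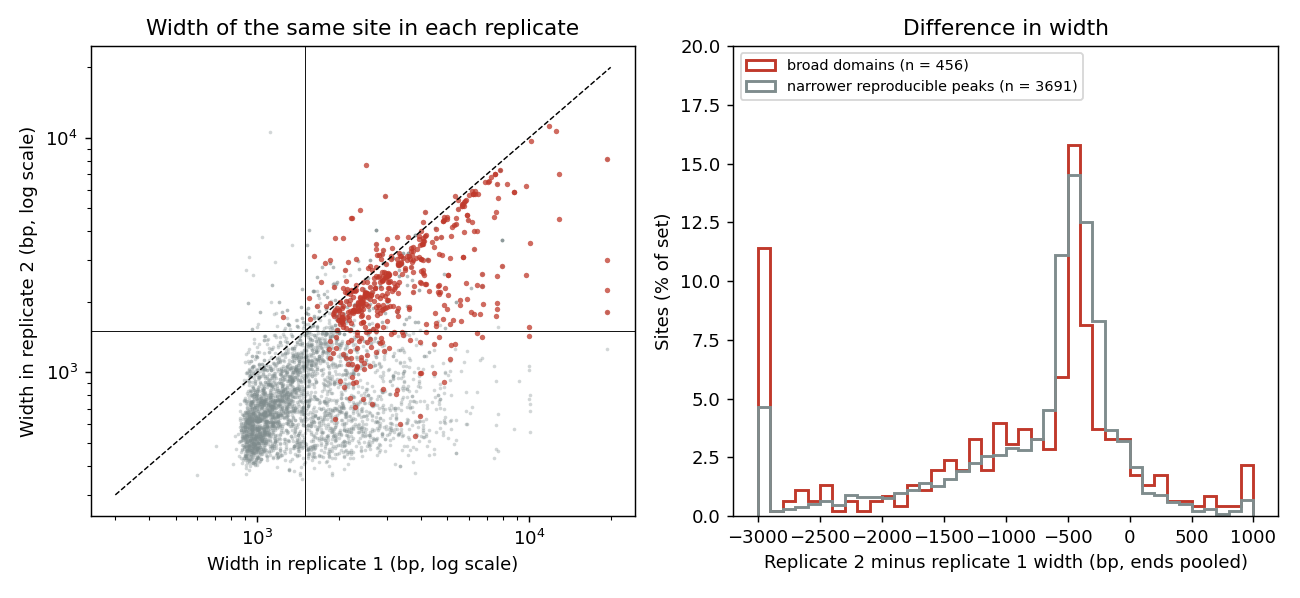
Left, width of the widest overlapping peak in replicate 2 against replicate 1 (bp, log scales) for broad domains (red) and narrower reproducible peaks (grey), with the line of equality dashed and 1500 bp as solid lines. Right, replicate 2 minus replicate 1 width (bp, in bins of 100 bp, with values beyond the axis in the end bins) as a percent of each set; both sets have their highest bin close to -426 and -424 bp, the medians of single-peak sites, and their overall medians are -591.5 and -509 bp.

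Most of a domain was covered in each replicate. Replicate 1 covered all bases of 409 domains (89.7%) and replicate 2 all bases of 218 (47.8%), against 94.9% and 63.7% of narrower peaks. The median coverage in replicate 2 was 99.7% at domains and 100% at narrower peaks. Replicate 1 peaks passed the domain's edges by a median of 290 bp on the left and 317.5 bp on the right, and replicate 2 peaks by 58 bp and 89 bp. At narrower peaks these medians were 279 and 327 bp in replicate 1 and 64 and 108 bp in replicate 2. Replicate 2 split 54 domains (11.8%) into 2 or 3 peaks and replicate 1 split 6, against 58 (1.57%) and 5 of the 3691 narrower peaks. The replicate 1 peak held at least 1 more whole-series peak at 199 domains (43.6%) and 1691 narrower peaks (45.8%). In replicate 2 this was so at 88 domains (19.3%) and 736 narrower peaks (19.9%). Because of this, 49 domains shared a replicate 1 peak with another domain and 20 a replicate 2 peak, and their replicate values are not separate measurements.

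Among domains, ratios under 0.5 were mostly at regions that the lists divided differently. The replicate 2 peak was under 0.5 times the replicate 1 width at 91 of 456 domains and at 1374 of 3691 narrower peaks. Such a ratio was therefore not particular to domains. At 71 of the 91 the replicate 1 peak held further whole-series peaks, at 34 replicate 2 split the domain, and at 8 neither was so. Among all 456 domains the first was so at 199 (43.6%) and the second at 54 (11.8%). No such counts are given for the 1374 narrower peaks. A peak that spans several sites is wide by construction, so these counts are a description. The lowest ratios were 0.0933 at II 10549882 to 10551504 and 0.116 at II 10558314 to 10560515, both under the same 19375 bp replicate 1 peak, and 0.141 at X 11481488 to 11483238, where replicate 2 had 2 peaks of at most 535 bp. The highest was 3.03 at II 8476401 to 8481698, with a peak of 2518 bp in replicate 1 and one of 7632 bp in replicate 2. Then came 2.06 at III 10807135 to 10811701 and 2.04 at V 9089051 to 9090978. In these 3 the replicate 2 score was 3100 and the replicate 1 score between 264 and 597.

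Another 25 nuclear whole-series peaks reached 1500 bp without being in both replicates. They were weak, with a median score of 14.2 and none above 33.88, although their median width was 2158 bp. Replicate 1 alone had 11 of them and replicate 2 alone 6, and the remaining 8 were in no replicate list. These 8 included 6 on chromosome I, in the stretches 4340996 to 4546335 and 10208080 to 10271911, the widest at 10212184 to 10219243 (7060 bp, score 29.55). A further 2 wide peaks were mitochondrial and outside the rule.

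Domains were most frequent on IV and least on X. There were 102 on IV (5.83 per Mb), 77 on III (5.59), 80 on II (5.24), 72 on I (4.78), 76 on V (3.63) and 49 on X (2.77). This was not the order of all reproducible peaks, which were densest on III (62.4 per Mb) and I (53.3). The share of reproducible peaks that were broad was 13.5% on IV (11.3% to 16.2%), 12.7% on II (10.3% to 15.5%) and 12.4% on V (10.04% to 15.3%). It was 10.02% on X (7.66% to 13.0%), 8.97% on I (7.18% to 11.1%) and 8.95% on III (7.22% to 11.05%). The interval of IV lay above those of I and III, and the others overlapped. With the limit at 1200 bp, or with peaks within 500 bp merged, III had more domains per Mb than IV (9.21 against 9.03, and 12.3 against 10.2), and with merging I did too (10.6). In both settings IV kept the highest broad share. X had the lowest broad share with merging (19.95%, against 25.3% on I and on III) and when overlap with replicate 1 alone was asked for (5.97%, against 6.62% on III and 6.86% on I). With overlap with replicate 2 alone, X (8.28%) was instead above V (8.04%), III (6.16%) and I (5.63%). At 1200 bp X (16.8%) was also above I (15.1%) and III (14.8%).

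**Figure D3:**
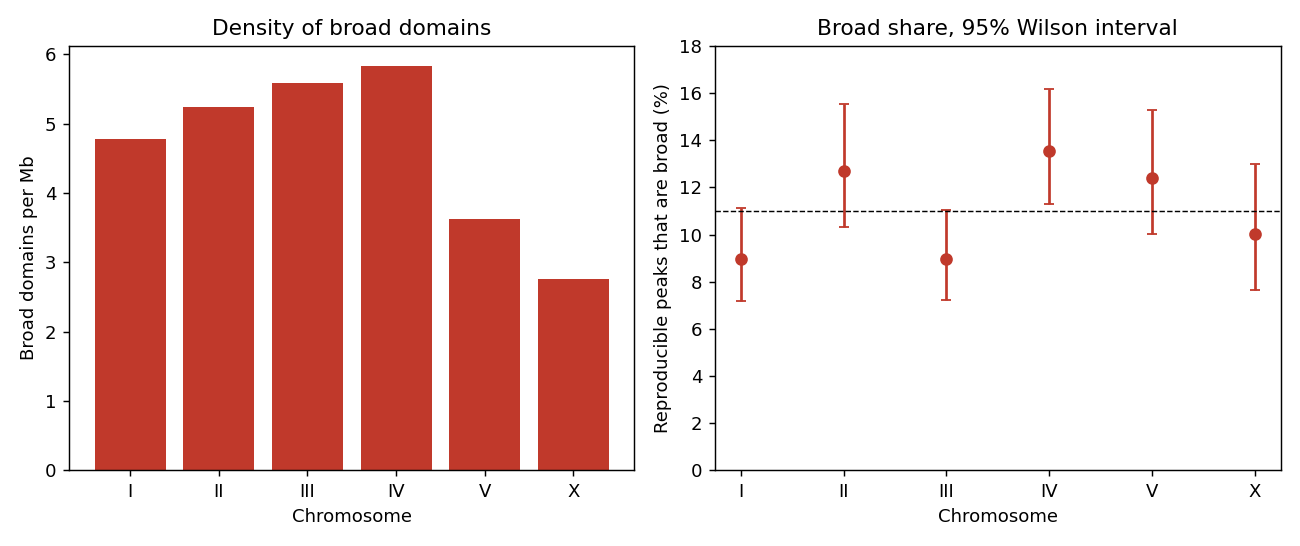
Left, broad domains per Mb of each chromosome (bars from 0). Right, percent of reproducible peaks that were broad (points, with 95% Wilson intervals for counting error) and the value over all chromosomes (dashed, 10.996%); IV has the highest value in both panels, X the lowest density, and III and I the lowest broad shares at this setting.

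The replicates' median widths lay furthest apart on X. The X domains had a median width of 3552 bp in replicate 1 and 1936 bp in replicate 2, while autosomal domains had 2973 bp in replicate 1 and 2215 bp in replicate 2. A replicate 2 peak of 1500 bp or more was found at 34 of 49 X domains (69.4%) and at 349 of 407 autosomal domains (85.7%). Among all wide peaks of the replicate lists, X held 197 of 1551 in replicate 1 (12.7%) and 45 of 603 in replicate 2 (7.46%), beside 15.3% and 10.1% of all peaks of these lists. Site by site, however, the median ratio of replicate 2 to replicate 1 width was 0.730 on X and 0.726 on III, against 0.794 to 0.827 on the other chromosomes. The narrower peaks also had a low median ratio on X, 0.511, against 0.590 on the autosomes. The difference between X and the autosomes in these values was not tested.

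On IV, 18 of the 102 domains lay between 14 and 17 Mb, within a stretch known for piRNA genes, and made up 19.4% of the 93 reproducible peaks there. Between 5 and 7 Mb, in the other such stretch, there were 4 domains among 67 reproducible peaks (5.97%). Over all of IV, 13.5% of reproducible peaks were broad. Domains per Mb were 6 between 14 and 17 Mb and 2 between 5 and 7 Mb, against 5.83 on IV as a whole. No interval was computed for these stretches, and their difference from the rest of IV was not tested. No domain was tied to a piRNA gene.

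On the autosomes the share of sites in the arms was lower among domains than among narrower peaks, within overlapping intervals. In the arms, the outer 25% at each end, lay 170 of 407 autosomal domains (41.8%, 37.1% to 46.6%) and 1523 of 3251 narrower peaks (46.8%, 45.1% to 48.6%). The difference was not tested. In C. elegans the arms carry most meiotic crossovers. The arm share of domains was 34.2% on V, 36.1% on I, 42.9% on III, 43.8% on II and 49.02% on IV, where it was above that of narrower peaks (47.8%). On X 28 of 49 domains (57.1%, 43.3% to 69.98%) and 239 of 440 narrower peaks (54.3%, 49.6% to 58.9%) lay in the arms. Chromosome II was the most uneven, with 26 domains in the right arm and 9 in the left. Narrower peaks were not counted by left and right arm, so this unevenness may not be particular to domains.

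Within 500 kb of an end, X included, there were 41 domains (8.99%, 6.70% to 12.0%) and 234 narrower peaks (6.34%, 5.60% to 7.17%), with overlapping intervals and no test. Of the 41, 12 were on III, 9 on II, 7 on X, 6 on I, 4 on IV and 3 on V. Narrower peaks there numbered, in the same order, 49, 40, 37, 46, 34 and 28. The longest stretches without a domain were X 4266975 to 6251985 (1985011 bp, with 38 narrower peaks inside) and II 2387666 to 4260094 (1872429 bp, with 40 inside).

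**Figure D4:**
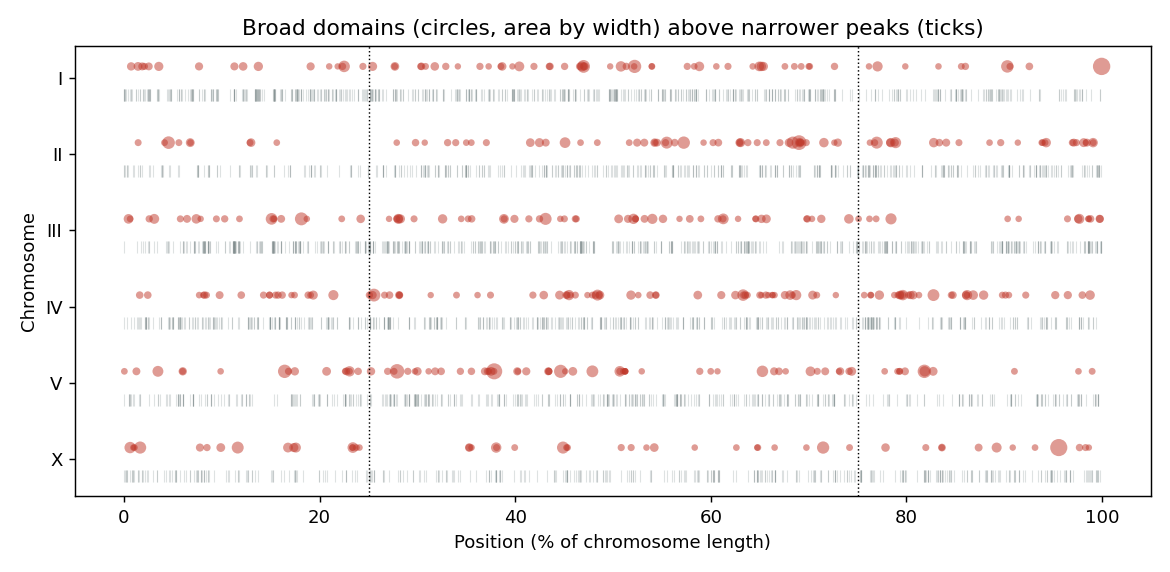
Position of each broad domain (circles, area by width) and narrower reproducible peak (ticks) as a percent of chromosome length, with the 25% limits of the arms dotted. Domains occur along all 6 chromosomes; II has 26 in its right arm and 9 in its left, and the largest circle, on I, lies at the right end.

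Domains had about as many neighbours as narrower peaks. Another reproducible peak lay within 10 kb, edge to edge, of 334 domains (73.2%, 69.00% to 77.1%) and 2765 narrower peaks (74.9%, 73.5% to 76.3%). The median gap to the nearest reproducible peak was 2096 bp from domains and 1729 bp from narrower peaks. No gap between reproducible peaks was under 51 bp. At least 3 neighbours within 10 kb were found at 116 domains (25.4%, 21.7% to 29.6%) and 1131 narrower peaks (30.6%, 29.2% to 32.1%). With peaks within 500 bp merged the order turned, with a neighbour at 65.3% of domains and 62.1% of narrower peaks.

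The share of sites with another domain close by was higher among domains than among narrower peaks. Within 10 kb there was another domain at 96 domains (21.1%, 17.6% to 25.03%) and at 595 narrower peaks (16.1%, 14.97% to 17.3%). The median gaps to the nearest other domain were 61724 bp and 63209 bp, so the curves came together at longer range. The intervals at 10 kb did not overlap, but the 96 domains formed 44 groups, 38 of them pairs counted from both sides. Their interval is therefore too narrow, and the difference was not tested. The share was higher among domains on each chromosome. The difference was largest on X (22.4% against 12.0%) and V (26.3% against 17.0%) and smallest on IV (18.6% against 17.7%). The 49 domains that shared a replicate 1 peak are among those with a near neighbour.

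Domains within 10 kb of each other formed 44 runs, 38 of 2 domains, 4 of 3 and 2 of 4. The run with the most bases, II 10541670 to 10560515, held 4 domains of 1623 to 8029 bp with scores from 14.26 to 107.05, as 1 peak in replicate 1 and 4 in replicate 2. The other run of 4, V 10714671 to 10726089, had domains of 1508 to 1620 bp, as 3 replicate 1 and 4 replicate 2 peaks. At IV 4920602 to 4927619 all 3 domains had the maximum score. In windows of 200 kb, 221 of 504 held no domain. The densest were V 10600001 to 10800000 with 7 domains among 12 reproducible peaks, II 10400001 to 10600000 with 6 among 15, and I 7000001 to 7200000 and IV 13800001 to 14000000 with 5 each, among 12 and 8. Windows rich in reproducible peaks were not always the richest in domains: III 3800001 to 4000000 had 23 reproducible peaks and 4 domains.

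**Figure D5:**
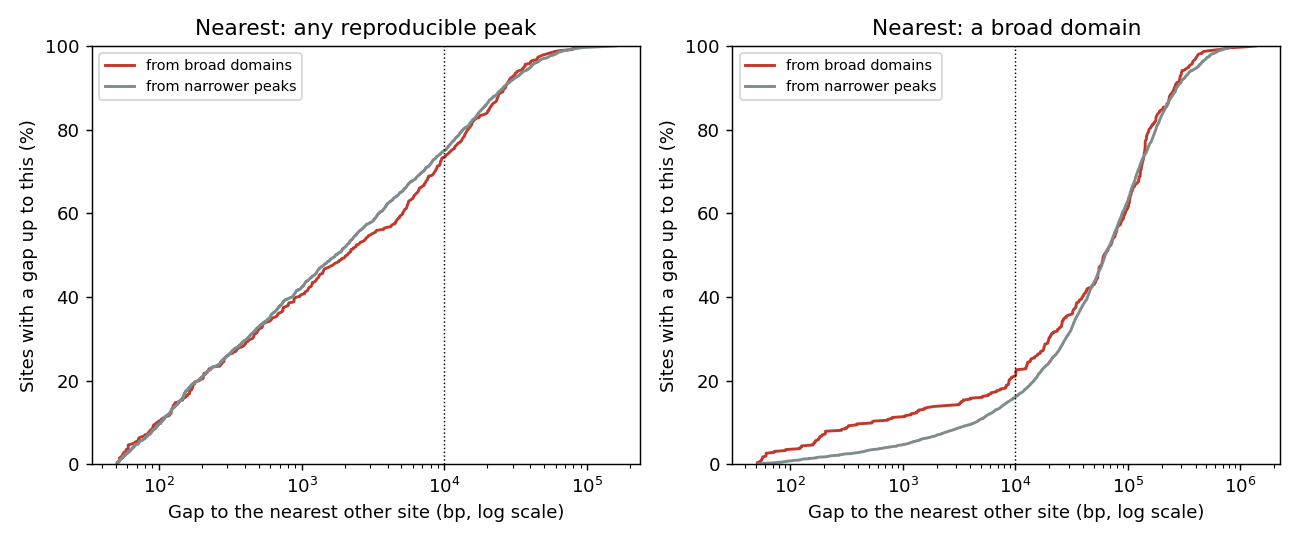
Cumulative percent of broad domains (red) and narrower reproducible peaks (grey) by the gap to the nearest other reproducible peak (left) and to the nearest other domain (right), in bp on log scales, with 10 kb dotted. At 10 kb the curves stand at 73.2% and 74.9% on the left, and at 21.1% and 16.1% on the right.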

How the data were processed

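The submitters' processing notes name BWA and ce10 for the alignment. The authors' 3 deposited peak lists (1 per ChIP replicate from MACS, with 4212 and 5799 peaks, and 1 for the whole series from MACS v2) use build WormBase WS220, per the file headers; the callers are named in the files' source column. The control, the thresholds and whether the whole-series list pooled reads are not stated in the sources used here. Each deposited peak has first and last bases and a score whose scale is not stated. Width was last minus first base plus 1. Overlap, coverage and edge gaps were computed with pandas 2.3.3, numpy 2.4.6 and scipy 1.17.1 under Python 3.11.15, checked on simulated peaks, and plotted with matplotlib 3.10.9. Chromosome length was the last base covered by any peak. Named domains were the 5 widest per chromosome, the 3 highest and 3 lowest width ratios, those at the limit and the 3 densest windows of 200 kb (ties also given); others were chosen after their values were seen. The members, settings and comparisons were chosen with earlier results of these data known. A WS220 genome or annotation was not used, so no sequence, base composition or gene is given. Nothing in the labels says whether replicates came from separate cultures.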

Additional observations from a re-analysis of the deposited data

How the results depend on the processing

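Of 56 recomputed values, 31 stayed within 1.5 times (numbers of domains), 1 SD over domains (width ratio) or the 95% Wilson interval (shares). The SD, 0.3145, was wide enough to take in the narrower peaks' median ratio of 0.573, so staying within it says little. Changing the arm limit, the neighbour distance or the width limit alters shares by definition, so the count is no measure of stability. A limit of 1200 bp gave 723 domains, with a width of 1500 bp in both replicates at 65.6% and broad shares of 17.5% on the autosomes and 16.8% on X; 2000 bp gave 218 domains, 94.95%, 5.39% and 4.29%. Merging peaks within 500 bp gave 885 domains, with 52.1% at that width in both replicates, 13.1% at maximum score, broad shares of 27.4% on the autosomes and 19.95% on X, and neighbours at 65.3%. The 50% of peaks with the higher scores gave an autosomal broad share of 12.4% and neighbours at 68.6%. Leaving out 1 replicate gave broad shares of 7.37% to 8.11% on the autosomes and 5.97% to 8.28% on X, and neighbours at 81.2% to 82.7%, with more peaks counted as reproducible. Arms of 33% and 10% held 60.2% and 17.7% of autosomal domains. The first and last 10% of the autosomes held 8.60% and 9.09% of domains, close to 9.63% and 9.26% of narrower peaks. No share of narrower peaks is given for arms of 33%. Neighbour distances of 5 kb and 20 kb gave 59.4% and 83.99%. Measures that need a width in both replicates were not recomputed without 1 of them. Against narrower peaks, the lower arm share of domains and their higher share with another domain within 10 kb kept their order in the 7 settings that changed the set of peaks, and the higher width ratio did so in the 5 that kept both replicates. With merging, however, the median width ratios came much closer, 0.645 at domains and 0.597 at narrower peaks, from 0.795 and 0.573. The orders of chromosomes by density and by broad share, and of the share with any neighbour, turned as reported above; at 1200 bp I also passed II (8.03 against 7.92 domains per Mb). Promoter share and base composition were not run. Depth is unknown. No paired analysis was possible because Input, the group with the same replicate numbers as ChIP, has no values here.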
